A study of Mus musculus with 6 samples.

Results

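The interferon-stimulated genes described here are a list of 49 genes that cells induce in response to interferon, and 47 of them could be measured. They were taken by name from the annotation of the probe sets, and each was represented by its brightest probe set that names no other gene. Isg15, whose probe set also names a second gene, and Ifi44 were not analysed here. All 47 passed the filter on low intensity and were among 16499 genes tested.

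Fetal hepatocytes of mouse embryos at embryonic day 16.5 were cultured in medium with oncostatin M and dexamethasone and then treated with actinomycin D (ActD), an inhibitor of transcription, for 0, 6 or 12 h. Cnot3KO cells came from embryos with floxed Cnot3 and Cre recombinase under the albumin promoter, so deletion follows albumin expression and is limited to cells that express it. Per the study's methods, control cells came from embryos with floxed alleles and no Cre, or with Cre and at least 1 intact allele, whereas the labels call them wild type. Total RNA of each genotype and time was measured on 1 Affymetrix array, 6 in all, and no source gives how many embryos a culture held.

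Cells that sense viral RNA or DNA secrete interferon, which acts on its receptor and, through Jak kinases, on transcription factors that include Stat2 and Irf9. These bind a short element in the promoters of interferon-stimulated genes, whose products detect, cut, edit or trap viral RNA and particles. Hepatocytes respond to interferon in this way. The Cnot complex, of which Cnot3 is a part, removes poly(A) tails, a first step of mRNA decay.

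The response element was looked up in the promoters of the members, since it is the sequence by which the family is known. The motif searched was GAAANNGAAA on either strand (TTTCNNTTTC), over 250 bases before to 50 bases after each start site given by RefSeq for GRCm38.p6, with overlapping matches allowed. A match was held by 18 of 40 listed members whose promoter was given (45%), against 1079 of all 27025 genes (3.99%). A match is a description of the letters, not a bound site. The windows of 10 members are shown, chosen to hold genes higher at 0 h, genes that separated under ActD and both members with the opposite change, with 12 bases on both sides of the match, fewer where the promoter ends. They are written 5′ to 3′ on the strand of the gene, with the motif in capitals.
Ifit1: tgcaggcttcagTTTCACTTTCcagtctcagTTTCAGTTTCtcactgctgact
Ifit3: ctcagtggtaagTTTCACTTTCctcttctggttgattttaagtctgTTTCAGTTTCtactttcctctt
Rsad2: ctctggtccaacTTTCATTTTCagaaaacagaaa
Oas3: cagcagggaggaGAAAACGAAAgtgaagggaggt
Bst2: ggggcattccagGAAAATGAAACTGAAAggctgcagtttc
Irf2: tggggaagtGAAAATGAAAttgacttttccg
Igtp: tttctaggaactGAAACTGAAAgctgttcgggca
Irgm1: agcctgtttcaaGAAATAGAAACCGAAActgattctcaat
Gbp2: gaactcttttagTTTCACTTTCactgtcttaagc
Gbp3: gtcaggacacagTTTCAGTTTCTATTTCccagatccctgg

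Ifit1 (chr19:34640773-34640825, plus strand) and Ifit3 (chr19:34583361-34583428, plus strand) carried 2 separate copies each, whose first bases lay 104 and 85 bases before the start of Ifit1 and 156 and 122 bases before that of Ifit3. Irgm1 (chr11:48871423-48871462, minus strand), Gbp3 (chr3:142559987-142560026, plus strand) and Bst2 (chr8:71537575-71537614, minus strand) carried 2 overlapping copies. Rsad2 (chr12:26456551-26456584, minus strand), Igtp (chr11:58199510-58199543, plus strand) and Gbp2 (chr3:142620592-142620625, plus strand) had 1 copy at 120, 34 and 59 bases before the start. Oas3 (chr5:120777713-120777746, minus strand) had 1 at 75 bases and Irf2 (chr8:46739495-46739525, plus strand) 1 at 241 bases before the start. The motif was found in 10 of 20 members over 1.5-fold higher in Cnot3KO cells at 0 h and in 7 of 18 other measured members.

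Array values are intensities after Robust Multi-array Average (RMA), which gives all arrays nearly the same distribution, and they are not comparable between probe sets. The array medians lay between 69.7 and 72.4. A change over ActD thus compares an mRNA with the rest of its array, and a positive one can belong to an mRNA that is lost more slowly than most. With single arrays, the difference at 1 time carries no error estimate. As a technical guide, the SD between 2 probe sets of a gene was 0.24 for the difference at 0 h (log2), 0.25 for the change over 12 h in Cnot3KO cells and 0.50 for that in control cells, over 4079 genes. The hepatocyte marker Alb lay between 33652 and 34977 in Cnot3KO cells and between 33707 and 35595 in control cells. Tat, another such marker, lay between 72.9 and 95.7 in Cnot3KO cells and between 78.0 and 122 in control cells. Alb alone does not show that a culture held only hepatocytes. Cnot3 itself had intensities of 174, 174 and 146 in Cnot3KO cells and 296, 214 and 158 in control cells, and whether its probes lie in the deleted exons is not given in the sources used here.

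Before ActD, the intensity in Cnot3KO cells was over 1.5-fold above that in control cells for 24 of 47 members (51.1%), against 6.71% of all genes tested. No member was over 1.5-fold lower, against 2.92% of all genes. The median difference of the members was 0.59 (log2), with a range of -0.19 to 2.35, and that of all genes was 0.03. The members nearest to the limit were Ifih1 (1.51-fold) and Rnf213 (1.60-fold) inside it and Mx1 (1.49-fold) and Samhd1 (1.47-fold) outside it. Of 10 such members with more than 1 probe set, 7 were higher in Cnot3KO cells on every set, the exceptions being Xaf1, Rnf213 and Rtp4, and the second brightest set had the sign of the first in 16 of 23 members. In RNA from a whole culture, more responding cells and more RNA per cell cannot be told apart. The plot of intensities at 0 h shows the pairs by role.

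**Figure D1:**
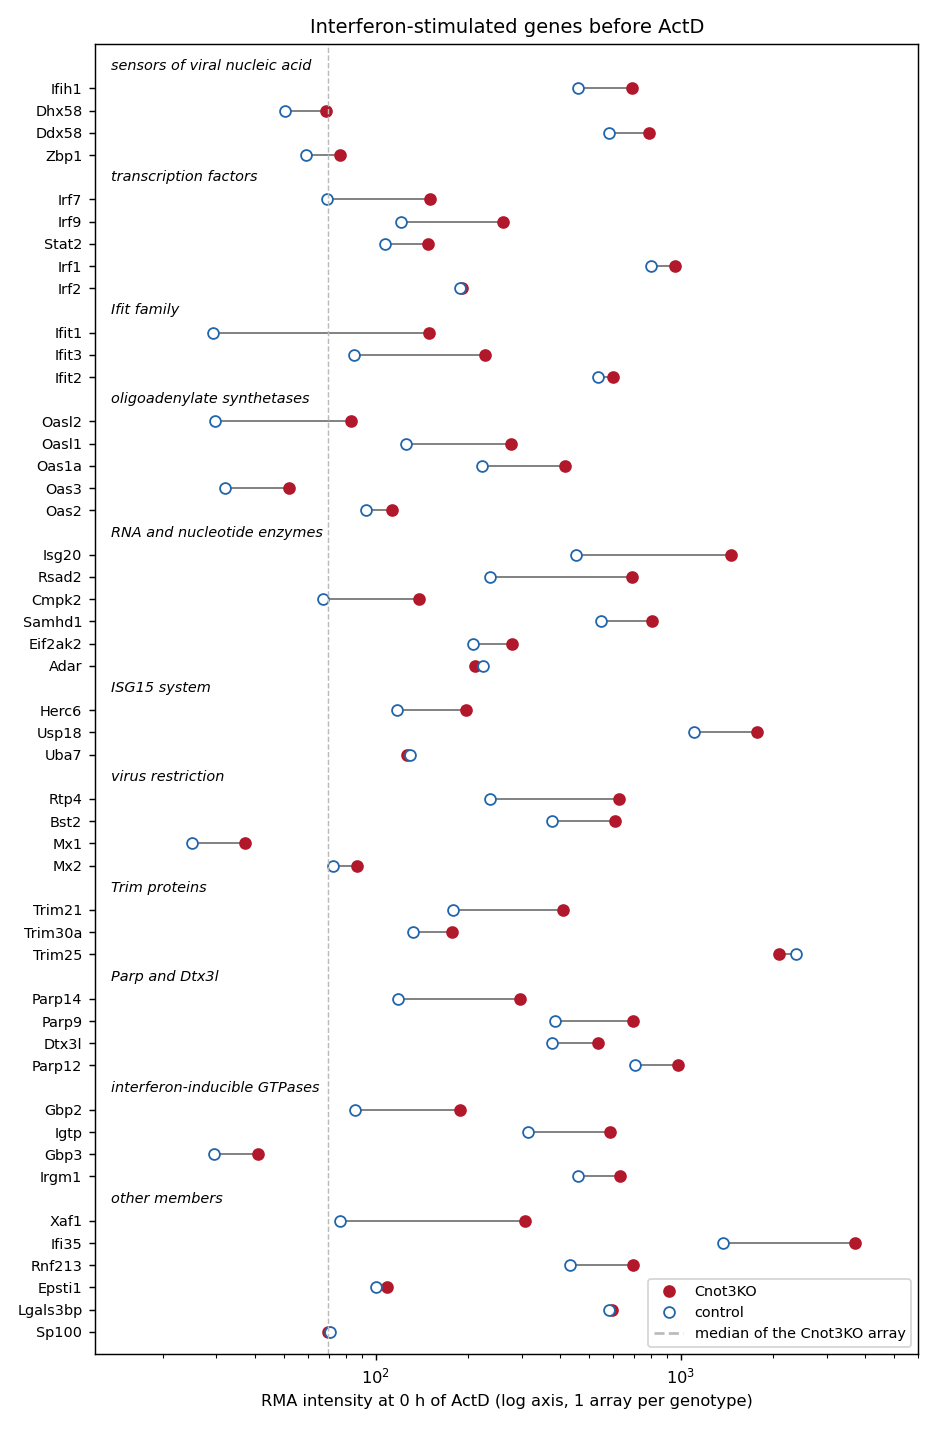
RMA intensity of the 47 measured members at 0 h of ActD (x axis, log scale), with 1 array per genotype: filled red circles for Cnot3KO, open blue circles for control, grouped by role. The red circle lies right of the blue one in 43 of 47 members, and Ifit1 and Xaf1 have the longest lines.

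Over all 3 times, 29 members were higher on every Cnot3KO array than on any control array, against 15.9% of all genes, and 0 were lower on every Cnot3KO array, against 12% of all genes. In a limma model with genotype and time as terms, 7 members were higher in Cnot3KO cells, namely Ifit1, Ifi35, Irf9, Isg20, Xaf1, Trim21 and Rtp4, against 0.703% of all genes. No member was lower by this test, against 0.285% of all genes. At an unadjusted p under 0.05, 36 members were higher (22.4% of all genes) and 0 lower. Of all 16499 genes, 5517 had such a p in either direction, and 3700 of these were higher. The Benjamini-Hochberg adjusted p of all 7 was 0.0499, so they stood at the edge of the limit of 0.05. The test measures agreement of the genotype difference over times, not over embryos. Without a filter on low intensity, or without the 6 h arrays, no member passed. At an unadjusted p under 0.05 these fits had 36 and 27 members, all higher in Cnot3KO cells. Of all genes, 5761 of 18193 and 2185 of 16499 had such a p in either direction. Without the 0 h arrays 32 passed, against 24.3% of all genes higher by that fit, and without the 12 h arrays 5 did, against 0.255%.

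**Figure D2:**
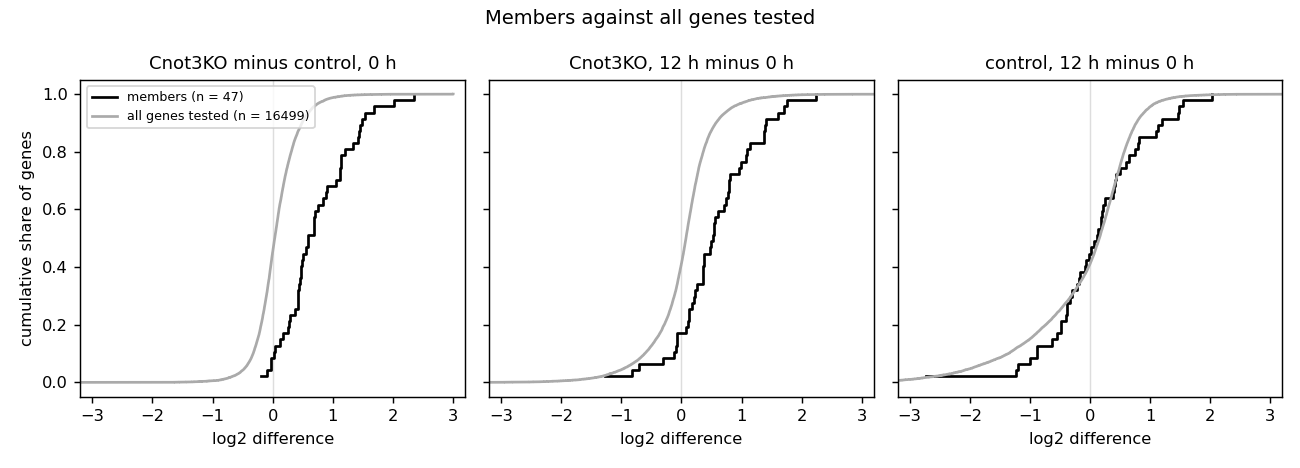
Cumulative share of genes (y axis) by log2 difference (x axis) for the 47 members (black) and all 16499 genes tested (grey), for Cnot3KO minus control at 0 h, for 12 h minus 0 h in Cnot3KO cells and for 12 h minus 0 h in control cells. The members lie to the right of all genes in the first 2 panels (medians 0.59 and 0.03, then 0.53 and 0.08), and close to them in the third (0.11 and 0.15).

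Over 12 h of ActD the median change of the members was 0.53 in Cnot3KO cells and 0.11 in control cells (log2), against 0.08 and 0.15 for all genes. On the Cnot3KO arrays 20 members were over 1.5-fold higher at 12 h than at 0 h and 3 were over 1.5-fold lower, against 9.72% and 10.5% of all genes. In control cells 12 were higher and 7 lower, against 18.9% and 23.2% of all genes. The change was over 1.5-fold more positive in Cnot3KO than in control cells for 22 members and over 1.5-fold more negative for 2, Bst2 and Oas3, against 22.9% and 12.3% of all genes. These counts have no test, and they depended on the scaling. Centring each array on the median of the genes tested moved the median of all genes by -0.12 at 0 h, by 0.02 for the change in Cnot3KO cells and by 0.35 for the change in control cells (log2). It left 8 members more positive and 6 more negative in Cnot3KO cells, and in control cells 18 higher and 4 lower at 12 h. On ribosomal protein genes the counts were 22 and 2.

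The term for genotype by hours called no member and 0% of all genes at an adjusted p of 0.05 (limma). At an unadjusted p under 0.05, 7 members had a more positive slope in Cnot3KO cells (12.8% of all genes), namely Ifit2, Ifih1, Ddx58, Irf1, Irf9, Igtp and Trim25, and 1, Bst2, a more negative one. Of all 16499 genes, 2924 had such a p in either direction, and 2107 of these were more positive. The smallest adjusted p among members was 0.185, for Ifit2. With time as a factor, which leaves 1 residual degree of freedom, 13 members were more positive and 1 more negative, against 16.8% and 4.59% of all genes. A p outside the limit does not show that the slopes were equal.

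**Figure D3:**
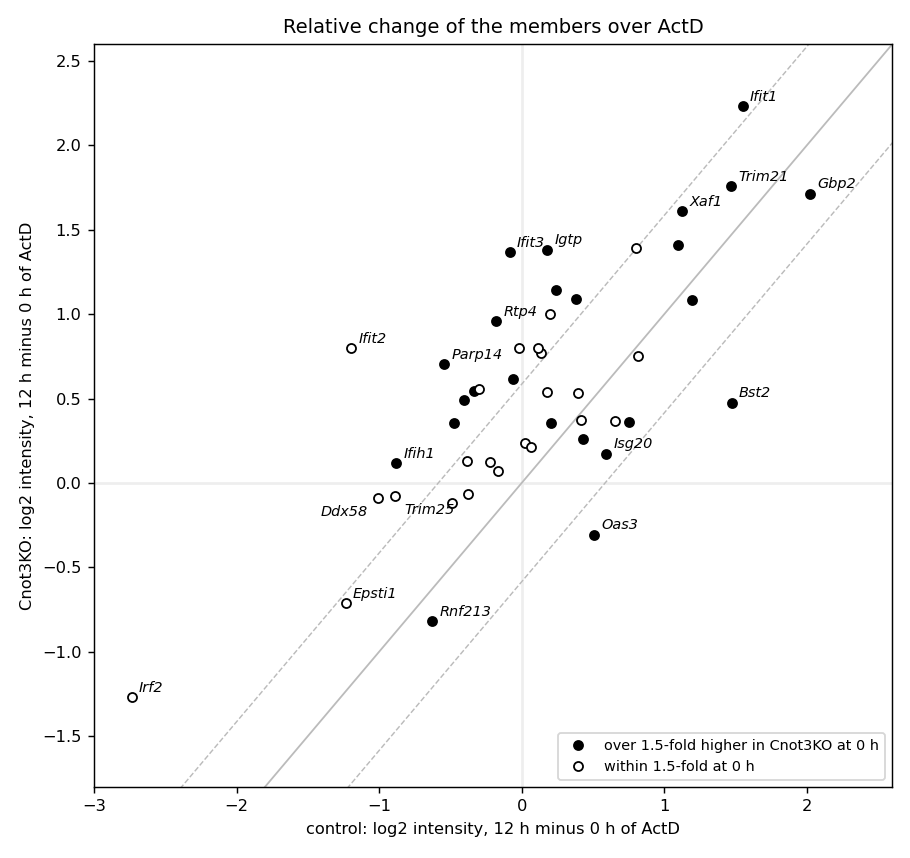
Log2 change in intensity from 0 to 12 h of ActD in Cnot3KO cells (y axis) against control cells (x axis) for the 47 members, filled where the gene was over 1.5-fold higher in Cnot3KO cells at 0 h. The solid line marks equal change and the dashed lines a 1.5-fold difference between the genotypes. The 22 members above the upper dashed line include Ifit2 and Ifit3, and Bst2 and Oas3 lie below the lower one.

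Most of the gain in Cnot3KO cells came between 6 and 12 h, a comparison chosen after the values were seen. In that interval the Cnot3KO arrays showed 21 members over 1.5-fold higher and 0 lower, against 3.7% and 2.8% of all genes. In control cells 7 were higher and 4 lower, against 5.01% and 11.6% of all genes. The median change of the members in the first 6 h was 0.08 in Cnot3KO cells and 0.05 in control cells (log2), and in the second 6 h it was 0.52 in Cnot3KO cells and -0.09 in control cells. All genes had medians of 0.04 in Cnot3KO cells and -0.02 in control cells in the second 6 h. Each of these changes rests on a single array at each end.

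**Figure D4:**
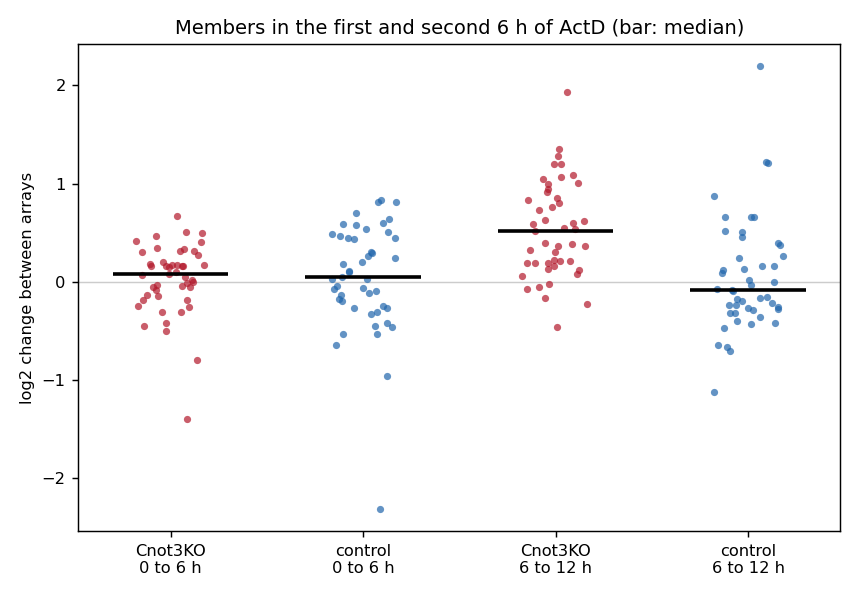
Log2 change of each of the 47 members (points, spread sideways for legibility) between 0 and 6 h and between 6 and 12 h of ActD, in Cnot3KO (red) and control cells (blue), with bars at the medians. The Cnot3KO median is 0.08 in the first 6 h and 0.52 in the second, while the control medians are 0.05 and -0.09.

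Among the Ifit genes, whose products bind viral RNA and block its translation, all 3 were higher on every Cnot3KO array than on any control array. At 0, 6 and 12 h Ifit1 had intensities of 149, 184 and 701 in Cnot3KO cells and 29.3, 18.7 and 85.7 in control cells, so that it was 5.10-fold higher before ActD, and it was 4.69-fold higher at 12 h than at 0 h in Cnot3KO cells and 2.93-fold higher in control cells. Its control values at 0 and 6 h were below the array medians. Ifit3, a partner of Ifit1 and Ifit2, had 227, 230 and 586 in Cnot3KO cells and 84.4, 126 and 79.6 in control cells. Ifit3 was 2.69-fold higher at 0 h, and its gain after 6 h was in Cnot3KO cells. Ifit2 had 600, 580 and 1044 in Cnot3KO cells and 535, 276 and 233 in control cells. At 0 h Ifit2 was within 1.5-fold (0.17, log2), and the genotypes separated over ActD, with a change over 12 h of 0.80 in Cnot3KO cells and -1.20 in control cells.

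**Figure D5:**
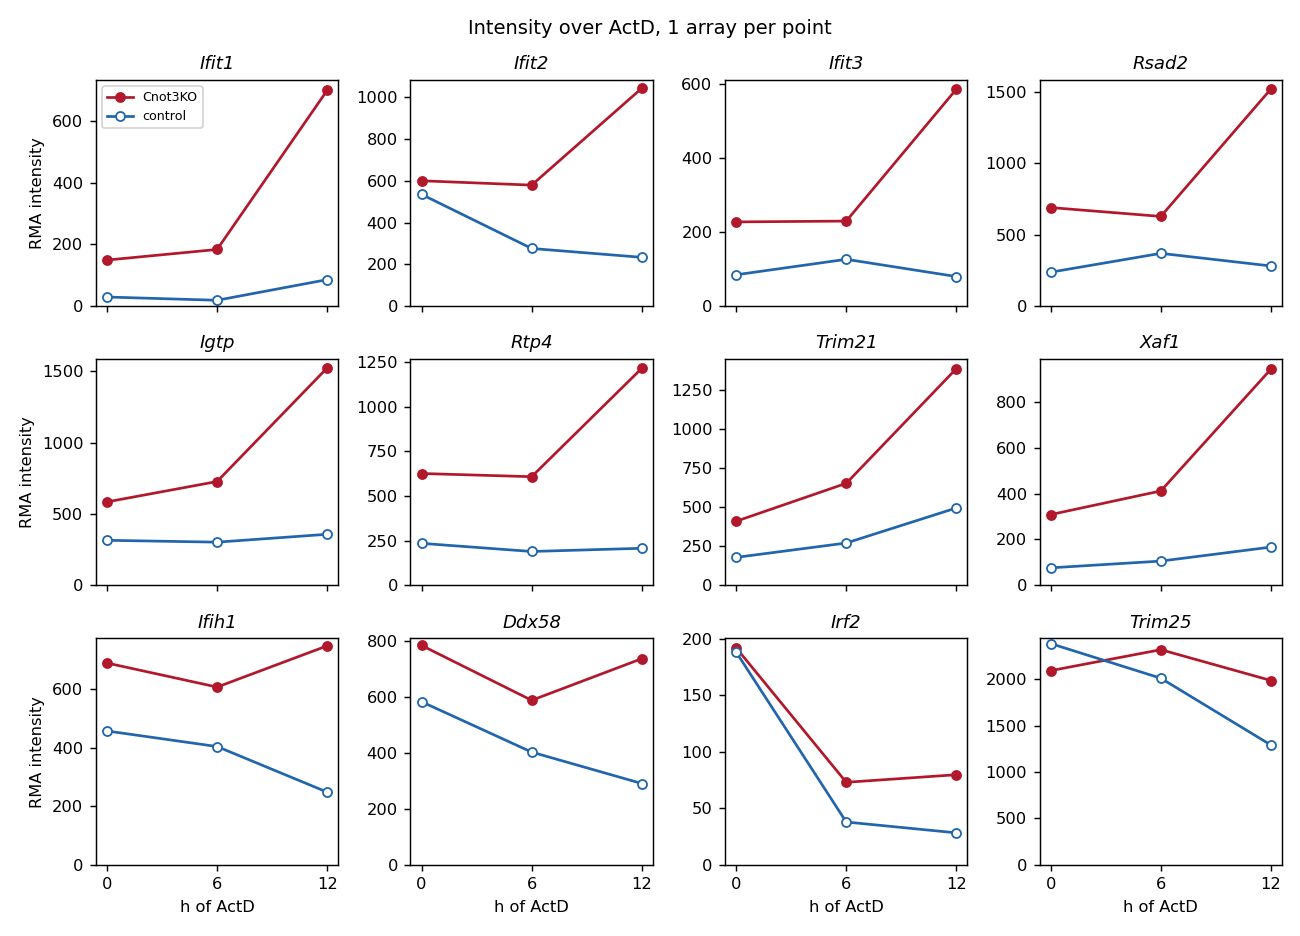
RMA intensity (y axis, linear, from 0) over 0, 6 and 12 h of ActD (x axis) for 12 members, with 1 array per point: filled red for Cnot3KO and open blue for control. Ifit1, Ifit3, Rsad2, Igtp, Rtp4, Trim21 and Xaf1 are higher in Cnot3KO cells from 0 h on, while Ifit2, Irf2 and Trim25 start within 1.5-fold and separate by 12 h.

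The sensors of viral nucleic acid were all within or just over 1.5-fold at 0 h. Ifih1 (MDA5), which recognises long double-stranded RNA, had 690, 608 and 749 in Cnot3KO cells and 458, 405 and 249 in control cells. Ddx58 (RIG-I), which recognises RNA with a 5′ triphosphate, had 784, 588 and 736 in Cnot3KO cells and 583, 403 and 290 in control cells. Both were higher on every Cnot3KO array than on any control array. Over 12 h Ifih1 had a log2 change of 0.12 in Cnot3KO cells and -0.88 in control cells, and Ddx58 was 1.06-fold lower in Cnot3KO cells and 2.01-fold lower in control cells. The second probe set of Ddx58 changed by 0.03 in Cnot3KO cells and -0.18 in control cells (log2), a difference of 0.21 in place of 0.91. Dhx58 (LGP2), a regulator of both, and Zbp1, a sensor of Z-form nucleic acid, differed by 0.44 and 0.37 at 0 h, and their changes over 12 h differed by less than 1.5-fold between the genotypes.

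Of the transcription factors, the pair with the largest difference at 0 h was Irf7, which drives interferon genes, and Irf9, which with Stat2 recognises the response element. Irf7 had 150, 212 and 398 in Cnot3KO cells and 68.9, 123 and 147 in control cells. Irf9 had 261, 361 and 556 in Cnot3KO cells and 121, 145 and 157 in control cells, and its genotype difference over the 3 times was 1.42 ± 0.18 (log2, limma estimate and SE). Both were higher on every Cnot3KO array, and higher at 12 h than at 0 h in both genotypes. Stat2 was 1.38-fold higher at 0 h, within the limit, with a change over 12 h of -0.12 in Cnot3KO cells and -0.49 in control cells.

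Irf1, an activator of interferon-stimulated genes, had 953, 1071 and 1402 in Cnot3KO cells and 796, 726 and 646 in control cells. It was within 1.5-fold at 0 h and moved up in Cnot3KO cells and down in control cells at both later times. Irf2, which competes with Irf1 for the same element, had 192, 72.9 and 79.6 in Cnot3KO cells and 188, 37.8 and 28.2 in control cells. Its intensities were nearly equal at 0 h, and it was the member with the largest loss in both genotypes, -1.27 in Cnot3KO cells and -2.74 in control cells over 12 h (log2).

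Active enzymes of the oligoadenylate synthetase family make the messenger that activates RNase L. Over 1.5-fold higher at 0 h were 4 of the 5 listed genes of this family, whether active or not. Oasl2 had 83.0, 60.9 and 117 in Cnot3KO cells and 29.6, 30.1 and 22.3 in control cells, a 2.81-fold difference at 0 h, although its control values all lay below the array medians. Oasl1, which restrains Irf7 in the mouse, had 277, 244 and 354 in Cnot3KO cells and 126, 171 and 145 in control cells, and Oas1a had 416, 477 and 498 in Cnot3KO cells and 222, 362 and 299 in control cells. For both the changes over 12 h were within 1.5-fold of each other. Oas3 had 52.0, 36.8 and 42.0 in Cnot3KO cells and 31.9, 33.1 and 45.3 in control cells, all below the array medians, and its genotypes had crossed by 12 h. Oas2 differed by 0.28 at 0 h and by 0.42 at 12 h.

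Enzymes of RNA and nucleotides included the exonuclease Isg20, which had 1461, 1845 and 1647 in Cnot3KO cells and 453, 684 and 683 in control cells. Its 3.22-fold difference at 0 h was the third largest among the members, and its change over 12 h was smaller in Cnot3KO than in control cells. Rsad2 (viperin), which makes a nucleotide that ends viral RNA chains, had 690, 628 and 1521 in Cnot3KO cells and 237, 369 and 281 in control cells, and its neighbour in the genome, the nucleotide kinase Cmpk2, had 138, 172 and 292 in Cnot3KO cells and 67.0, 97.3 and 154 in control cells. Rsad2 gained over 12 h by 1.14 in Cnot3KO cells and 0.24 in control cells, whereas Cmpk2 gained alike, by 1.08 in Cnot3KO cells and 1.20 in control cells. The second brightest probe set of Rsad2 gave a difference in change of -0.27 in place of 0.90.

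Adar, the enzyme that edits adenosine in double-stranded RNA, had 211, 279 and 367 in Cnot3KO cells and 225, 218 and 243 in control cells. It was level at 0 h, and its second probe set was 0.83 higher there (log2). Eif2ak2 (PKR), the kinase that stops translation on double-stranded RNA, and Samhd1, which hydrolyses deoxynucleotides, differed by 0.42 and 0.56 at 0 h. Neither had a change over 12 h that differed by 1.5-fold between the genotypes. The other probe sets of Samhd1 differed by -0.25 to 0.06 at 0 h (log2), the second brightest by -0.10.

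In the Isg15 system, which attaches a ubiquitin-like tag to proteins, the protease Usp18, which removes the tag and damps the interferon receptor, had 1775, 1676 and 2588 in Cnot3KO cells and 1099, 915 and 873 in control cells. The ligase Herc6 had 197, 222 and 253 in Cnot3KO cells and 117, 138 and 198 in control cells. Usp18 was higher on every Cnot3KO array, with a change over 12 h of 0.54 in Cnot3KO cells and -0.33 in control cells. The arrays of Herc6 overlapped on the probe set used. The 3 other probe sets of Herc6 differed by 0.80 to 1.77 at 0 h, and on each every Cnot3KO array lay above every control array. Uba7, the enzyme that activates the tag, differed by -0.03 at 0 h and by -0.31 at 12 h.

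Among genes that restrict viruses at membranes or as particles, Rtp4 had 627, 609 and 1216 in Cnot3KO cells and 236, 190 and 208 in control cells. It was 2.66-fold higher at 0 h and 5.85-fold at 12 h, and passed the genotype test (1.88 ± 0.24, log2, limma estimate and SE). Its second, dimmer probe set differed by -0.08 at 0 h. Bst2 (tetherin), which holds budding virus at the cell surface, had 609, 734 and 847 in Cnot3KO cells and 377, 663 and 1047 in control cells. It was the member whose change favoured control cells most, and by 12 h it was lower in Cnot3KO cells. The GTPase Mx1 had 37.2, 36.5 and 63.4 in Cnot3KO cells and 24.9, 30.4 and 27.4 in control cells, all below the array medians, and Mx2 differed by 0.26 at 0 h.

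Of the Trim proteins, Trim21, a cytosolic antibody receptor and ubiquitin ligase, had 410, 653 and 1386 in Cnot3KO cells and 179, 271 and 495 in control cells. It gained in both genotypes and passed the genotype test, although its control array at 12 h lay above the Cnot3KO array at 0 h. The second probe set of Trim21 was within 1.5-fold at 0 h (0.48, log2). Its difference in change, 0.69, was over 1.5-fold. Trim25, a ligase that acts with RIG-I, had 2095, 2321 and 1989 in Cnot3KO cells and 2387, 2013 and 1292 in control cells. It was the member with the lowest difference at 0 h (-0.19, log2) and had a change over 12 h of -0.08 in Cnot3KO cells and -0.89 in control cells. Trim30a differed by 0.42 at 0 h, with changes within 1.5-fold of each other.

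Parp9 and Dtx3l, which form a complex of an ADP-ribosyltransferase and a ubiquitin ligase, lay on different sides of the 1.5-fold limit at 0 h. Parp9 had 693, 584 and 885 in Cnot3KO cells and 386, 322 and 277 in control cells. Dtx3l had 535, 561 and 932 in Cnot3KO cells and 378, 262 and 373 in control cells, within 1.5-fold at 0 h. The second probe set of Dtx3l was over 1.5-fold higher there (0.87, log2), with a difference in change of 0.73. Parp14, which attaches single ADP-ribose units, had 297, 240 and 484 in Cnot3KO cells and 118, 103 and 81.0 in control cells, and its 5.98-fold difference at 12 h was the third largest of the members at that time. The second probe set of Parp14 differed by 0.33 at 0 h. Parp12 differed by 0.47 at 0 h and 0.99 at 12 h.

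The interferon-inducible GTPases act on vacuoles that hold parasites and bacteria. Their median change in Cnot3KO cells was the highest of the groups by role, at 1.39, against 0.50 in control cells (log2). That of the Ifit genes was almost the same in Cnot3KO cells, at 1.37, against -0.08 in control cells. Igtp had 585, 728 and 1524 in Cnot3KO cells and 316, 303 and 358 in control cells. Irgm1 had 632, 804 and 1659 in Cnot3KO cells and 458, 342 and 797 in control cells, and Gbp2 had 188, 268 and 617 in Cnot3KO cells and 85.6, 150 and 348 in control cells. Gbp2 had the largest gain of all members in control cells, with 1.71 in Cnot3KO cells and 2.02 in control cells over 12 h, while that of Igtp was 1.38 in Cnot3KO cells and 0.18 in control cells. Gbp3 had 41.2, 46.1 and 82.3 in Cnot3KO cells and 29.5, 33.4 and 33.8 in control cells, below the array medians except in Cnot3KO cells at 12 h. The probe sets of Gbp2, Ifi35, Irf2 and Trim25 are of a type that can share sequence with other transcripts, and Irf2 has no other set here.

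The remaining members have varied roles. Xaf1, which binds the apoptosis inhibitor Xiap, had 308, 411 and 942 in Cnot3KO cells and 76.5, 106 and 167 in control cells, and its 4.03-fold difference at 0 h was second to that of Ifit1. Its second probe set differed by -0.15 at 0 h. Ifi35 had 3725, 3980 and 5699 in Cnot3KO cells and 1368, 1569 and 1312 in control cells, and its genotype difference over the 3 times was 1.64 ± 0.20 (log2, limma estimate and SE). The ubiquitin ligase Rnf213 had 693, 400 and 393 in Cnot3KO cells and 433, 317 and 280 in control cells, lost in both genotypes, and its second probe set differed by -0.26 at 0 h. Epsti1 was within 1.5-fold at 0 h and lower at 12 h in both genotypes, with changes of -0.71 in Cnot3KO cells and -1.24 in control cells. Lgals3bp and the nuclear body protein Sp100 differed by 0.04 and -0.03 at 0 h.

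The difference before ActD and the difference in change can be set side by side, with the limit that both use the 0 h arrays. Over 1.5-fold higher at 0 h, with a change over 1.5-fold more positive in Cnot3KO cells, were 12 members, Ifit1, Ifit3, Ifi35, Ifih1, Rsad2, Oasl2, Irf9, Usp18, Parp9, Parp14, Igtp and Rtp4. Another 10 were over 1.5-fold higher at 0 h with changes within 1.5-fold of each other, namely Oasl1, Oas1a, Irf7, Isg20, Xaf1, Herc6, Trim21, Gbp2, Cmpk2 and Rnf213. Oas3 and Bst2 were higher at 0 h with a more negative change. Within 1.5-fold at 0 h, with a more positive change, were 10, namely Ifit2, Ddx58, Irf1, Irf2, Mx1, Trim25, Dtx3l, Adar, Irgm1 and Gbp3. On their second probe sets Dtx3l and Adar were over 1.5-fold higher at 0 h (0.87 and 0.83, log2). That of Trim21 differed by 0.48 at 0 h and by 0.69 in change. With each array centred on the median of genes, the change of only 5 of the 12 (Ifit3, Ifih1, Parp14, Igtp and Rtp4) and of 3 of these last 10 (Ifit2, Ddx58 and Irf2) stayed over 1.5-fold more positive. The second probe set of Ddx58 gave a difference in change of 0.21 before centring. Of 7 members over 1.5-fold lower at 12 h in control cells (Ifit2, Ifih1, Ddx58, Irf2, Trim25, Epsti1 and Rnf213), 3 were also lower in Cnot3KO cells, Irf2, Epsti1 and Rnf213. Because they were picked by their control values, this is a description.

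Most of the measured genes upstream of the members were within 1.5-fold at 0 h. Of the interferon ligands 7 of 16 listed were measured, and 0 were over 1.5-fold higher or lower, with a median difference of -0.12. Ifna9, Ifnab and Ifna2 differed most, by -0.22, -0.21 and -0.13 (log2). Ifnb1, the first interferon that most cells make, had 28.1, 30.3 and 33.9 in Cnot3KO cells and 30.5, 41.8 and 38.3 in control cells. All values of Ifnb1 were below the array medians. At 0 h all 7 measured ligands were below the array median in both genotypes, where a difference in mRNA can go unseen.

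Of the receptors and Jak-Stat genes 10 of 11 were measured and 0 differed by over 1.5-fold, with a median of -0.01. The largest differences were those of Ifnlr1, the receptor chain for interferon lambda (0.32), Ifngr1, the receptor chain for interferon gamma (-0.26), and the kinase Tyk2 (0.26). Of the feedback inhibitors 11 of 12 were measured, with a median of -0.06. The receptor chain Ifnar2 stands in both of these lists and is counted in both. Socs3, which blocks Jak kinases, was over 1.5-fold lower (-0.72), and Pias1 and Ptpn2 differed by 0.47 and 0.33. In the genotype test over the 3 times (limma) 0 ligands, 0 receptor and Jak-Stat genes and 0 feedback inhibitors passed. At an unadjusted p under 0.05, 0 ligands, 1 receptor and Jak-Stat gene and 3 feedback inhibitors were higher in Cnot3KO cells, and 0, 1 and 2 were lower.

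Adaptors and kinases that lead from sensing to interferon genes were measured for 13 of 15, with a median of 0.30. Of these, 3 were over 1.5-fold higher and 0 lower in Cnot3KO cells at 0 h, against 6.71% and 2.92% of all genes. The 3 were Tlr3, the endosomal receptor for double-stranded RNA, Mavs, the adaptor of RIG-I and MDA5, and Tbk1, the kinase that activates Irf3. Tlr3 had 179, 201 and 385 in Cnot3KO cells and 95.5, 112 and 94.8 in control cells. Mavs had 704, 479 and 551 in Cnot3KO cells and 448, 237 and 208 in control cells. Tbk1 had 2575, 1737 and 2155 in Cnot3KO cells and 1691, 452 and 431 in control cells, and its change over 12 h was -0.26 in Cnot3KO cells and -1.97 in control cells (log2). The adjusted p of these 3 in the genotype test lay between 0.0526 and 0.0549 (limma), outside the limit. At an unadjusted p under 0.05 in this test, 7 of the 13 were higher, against 22.4% of all genes, and 1 was lower.

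In a second list of interferon-stimulated genes, 41 of 52 were measured, with a median difference at 0 h of 0.25 (log2). Of these, 10 were over 1.5-fold higher and 0 lower in Cnot3KO cells at 0 h, against 6.71% and 2.92% of all genes. Trim34a, the only one to pass the genotype test, had 220, 257 and 463 in Cnot3KO cells and 83.6, 107 and 122 in control cells. Nmi, a partner of Ifi35, had 788, 922 and 974 in Cnot3KO cells and 412, 443 and 307 in control cells. Irgm2, a relative of Igtp, had 391, 470 and 916 in Cnot3KO cells and 226, 137 and 232 in control cells. For these 3 genes every Cnot3KO array lay above every control array. The 3 largest differences at 0 h were those of Trim34a (1.40), Tap1 (0.96) and Nmi (0.94, log2). Trim14 (0.86), Mlkl (0.81) and Tor3a (0.80) also lay above Irgm2 (0.79). At an unadjusted p under 0.05 in the genotype test (limma), 17 of the 41 were higher, against 22.4% of all genes, and 3 were lower.

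Markers of other cells were measured beside these genes, because leukocytes and endothelial cells also express interferon-stimulated genes. Of 19 macrophage markers 0 were over 1.5-fold higher and 7 lower in Cnot3KO cells at 0 h, against 6.71% and 2.92% of all genes. Their median was -0.27 (log2). Cd163, Vsig4 and Mrc1 were lower by the genotype test, against 0.285% of all genes. The summed intensity of the 19 markers lay between 20147 and 23271 in Cnot3KO cells and between 24816 and 30121 in control cells. This sum is weighted to bright probe sets, and Lyz2, the brightest, differed by -0.002 at 0 h (log2). Of 16 other leukocyte markers 1 was higher at 0 h, Bst2, which is also a member, and 2 were lower, against 6.71% and 2.92% of all genes. The leukocyte genes S100a8 and S100a9 were high on all arrays, at 18991 and 17607 in Cnot3KO cells and 20924 and 18973 in control cells at 0 h. Endothelial, erythroid and stellate cell lists had medians of -0.28, -0.36 and -0.29, and hepatocyte markers -0.06. The part of these cells in the results was not tested.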

How the data were processed

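Total RNA was measured on Affymetrix mouse arrays, 1 per genotype and time. Per the labels, the authors computed the deposited intensities with RMA, in a version not stated. The values are on a linear scale, and log2 was taken here. Of 45037 probe sets, the 34945 with 1 gene symbol in the platform annotation were used. Each gene was represented by its brightest probe set, and kept if above the 20th percentile of at least 1 array (16499 of 18193 genes). Differences at 0 h and changes over 12 h were counted beyond 1.5-fold with no test. The genotype term (with time as a factor) and the genotype by hours term were fitted over all genes with limma 3.58.1 in R 4.3.3 (2 residual degrees of freedom), with Benjamini-Hochberg adjustment at 0.05, and tested on simulated data. Nothing says that arrays are replicates. Per-array values are given for each member past 1.5-fold at 0 h or in the difference of change, or past a test. The members, lists and this rule were chosen with earlier results of these data known. Alternatives were filters, probe set choice, scaling, the fold limit, a variance trend and leaving out a time. Promoter sequences came from RefSeq.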

Additional observations from a re-analysis of the deposited data

Results flagged for a closer look

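For 4 members both later Cnot3KO arrays lay on one side of 0 h and both control arrays on the other, which singled them out. Oas3, an oligoadenylate synthetase, was lower than at 0 h in Cnot3KO cells (-0.50 at 6 h and -0.31 at 12 h, log2) and higher in control cells (0.05 and 0.50), a difference in change over 12 h of -0.81. The activator Irf1 was higher than at 0 h in Cnot3KO cells (0.17 and 0.56) and lower in control cells (-0.13 and -0.30), a difference of 0.86. The ubiquitin ligase Dtx3l was likewise higher in Cnot3KO cells (0.07 and 0.80) and lower in control cells (-0.53 and -0.02), a difference of 0.82. Its second probe set had 237, 264 and 242 in control cells, higher than at 0 h at both later times. Parp12, an ADP-ribosyltransferase, had values of 0.05 and 0.13 in Cnot3KO cells and -0.07 and -0.39 in control cells, a difference of 0.52, which is within 1.5-fold. The genotype by time term passed for none of them, with adjusted p of 0.325 for Oas3, 0.231 for Irf1, 0.416 for Dtx3l and 0.38 for Parp12 (limma, 6 arrays).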

How the results depend on the processing

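The 0 h counts (24 higher, 0 lower) stayed within 1.5 times under every filter, scaling and probe set choice except the second brightest probe set (7 of 22 members, median 0.31) and the 2-fold limit (15). The second set gave 7 higher and 0 lower over 12 h in Cnot3KO cells, 4 and 3 in control cells, 6 more positive and 0 more negative in the difference of change, and 5 and 2 higher from 6 to 12 h in Cnot3KO and control cells. Among values past 1.5-fold it turned the sign for Xaf1 (-0.15) and Rnf213 (-0.26) at 0 h and for the change of Rsad2 (-0.27), and the second set of Rtp4, which was too dim for the filter, did so for both. Counting all members with a second set, whatever their size of difference, the sign differed in 7 of 23 at 0 h and in 8 of 23 for the difference of change. The 2-fold limit gave 11 higher and 1 lower over 12 h in Cnot3KO cells, 7 and 4 in control cells, 6 more positive and 0 more negative, and 9 and 3 higher from 6 to 12 h. The mean of a gene's sets left 1 lower in Cnot3KO cells over 12 h and 4 higher in control cells from 6 to 12 h, and the 50th percentile filter 1 more negative change. Centring on the median of genes gave 4 lower in control cells, and 8 more positive and 6 more negative changes.

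The genotype test called 7 members (0.703% of all genes higher), but 0 with no filter and with the 50th percentile filter (0% of all genes in both), 24 with the mean of sets (7.47%), 22 with that centring (11.1%), 22 with a variance trend (9.19%), and, leaving out the 0, 6 or 12 h arrays in turn, 32, 0 and 5 (24.3%, 0% and 0.255%). The genotype by time test called 14 with time as a factor. With 6 h in place of 12 h, Cnot3KO cells had 1 member higher than at 0 h (median 0.078), control cells had 7 higher and 3 lower, and the median difference in change was -0.053. With 6 h in place of 0 h, 0 members were lower in Cnot3KO cells, and in control cells 7 were higher and 4 lower. The causes were not tested. No paired analysis was possible because the labels carry no replicate numbers; the times pair the genotypes in the model already. With 1 array per genotype and time, differences near the spread between probe sets could not be resolved.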

Other observations

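Of the second list of interferon-stimulated genes, 4 more were chosen after their values were seen. Tap1, the peptide transporter, had 278, 597 and 1148 in Cnot3KO cells and 143, 347 and 643 in control cells at 0, 6 and 12 h, a change over 12 h of 2.05 in Cnot3KO cells and 2.17 in control cells (log2). Psmb9, a subunit of the immunoproteasome, had 311, 428 and 723 in Cnot3KO cells and 188, 273 and 378 in control cells. Psmb8, another of its subunits, had 445, 605 and 947 in Cnot3KO cells and 301, 476 and 445 in control cells and was within 1.5-fold at 0 h. B2m, the light chain of class I molecules, had 9719, 10209 and 12518 in Cnot3KO cells and 8198, 8707 and 11817 in control cells and differed by 0.25 at 0 h (log2). In the genotype test over the 3 times the adjusted p was 0.0526 for Tap1, 0.0535 for Psmb9, 0.0785 for Psmb8 and 0.371 for B2m (limma), all outside the limit.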
